A study of Mus musculus with 3 samples.

Results

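The genes examined were 10 regulators of energy metabolism: the orphan receptor gene Rora, the estrogen-related receptor genes Esrra, Esrrb and Esrrg, the fatty acid sensors Ppara and Pparg, the coactivator genes Ppargc1a and Ppargc1b, the glucocorticoid receptor gene Nr3c1 and the thyroid hormone receptor gene Thrb. They were taken by gene name, and their CELF1 clusters were those that carried the Entrez identifier of 1 of the 10 genes. Together they held 456 of the 72222 clusters in the series. CELF1 (also called CUGBP1) is an RNA-binding protein of the nucleus and cytoplasm that acts on splicing and on mRNA decay. It was mapped by CLIP-seq, in which ultraviolet light of 254 nm fixes a protein to the RNA it touches, the protein is pulled down, and the RNA left on it is sequenced. There were 3 libraries with 1 library per group: heart (ventricle) and muscle of 16-week-old C57/BL6 mice, and C2C12 myoblasts, a cultured mouse line of dividing muscle precursors. The same monoclonal antibody (clone 3B1) against the endogenous protein was used in all 3 groups. The sources used here give neither the type of muscle nor the number of mice behind each tissue library.

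Nuclear receptors are transcription factors that switch genes on or off when a hormone, a fatty acid or another small lipid binds them, and some orphan members act with no known hormone. PPARα and the estrogen-related receptors drive the genes of fatty acid oxidation and of mitochondria in heart and muscle, and the PGC-1 proteins (Ppargc1a and Ppargc1b) dock onto these receptors and raise their activity. RORα feeds the circadian clock and lipid metabolism, while the glucocorticoid and thyroid hormone receptors carry endocrine signals to the fuel use and fiber type of muscle. CELF1 favors RNA rich in UGU, and it is known for binding in introns near the exons it regulates and in the 3' UTRs of mRNAs it destabilizes.

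For 6 of the genes, a stretch of 30 bases inside a cluster was read from the mm9 genome as an example of bound RNA rich in UGU. Each was the window with the most UGU within the bases that the most libraries shared, or within 1 cluster where no shared stretch was long enough. They are written 5' to 3' as DNA on the strand of the gene, with every TGT (UGU in the RNA) in capitals. The windows of Rora (chr9:68583318-68583347), Esrrb (chr12:87715178-87715207) and Thrb (chr14:18558503-18558532) lie in introns, and those of Esrrg (chr1:190037293-190037322), Ppara (chr15:85632810-85632839) and Ppargc1a (chr5:51849058-51849087, minus strand) lie in 3' UTRs. The Esrrb window lay in a heart cluster alone, and the other 5 lay in clusters of heart and muscle alike.
Rora: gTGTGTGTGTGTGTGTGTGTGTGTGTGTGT
Esrrb: TGTGTGTGTGTGTggTGTGTtTGTGTGTGT
Thrb: TGTGTGTGTGTGTggTGTGTtTGTaTGTGT
Esrrg: agaTGTTGTtattaactcgctcTGTGTTGT
Ppara: tatTGTTGTTGTTGTTGTtatTGTTGTTGT
Ppargc1a: gggTGTgcgTGTGTGTaTGTGTGTGTGTGT
The intronic windows of Rora, Esrrb and Thrb were nearly unbroken UG repeats and held 14, 12 and 11 overlapping UGU. The 3' UTR windows took other forms: Ppara had 8 UGU in a UGU repeat, Ppargc1a had 10 in a UG repeat, and Esrrg had 5 set among other bases. Because the windows were picked for their UGU, they are extremes and do not stand for the clusters at large. Alternating UG runs of at least 12 nt were in 20 of 104 heart clusters of Rora, 3 of 12 of Esrrb and 5 of 38 of Thrb. A window shows which bases were shared and does not mark a single contact point.

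The libraries differed in their number of clusters, with 42263 in heart, 24844 in muscle and 5115 in C2C12 myoblasts, and the number of reads behind a cluster is unknown. These numbers do not follow the totals of uniquely mapped reads in the study's text, by which C2C12 was read as deeply as heart and muscle less deeply. Gene counts were therefore compared as shares of each library's clusters, with intervals that cover counting error only, since there was no replicate. Cluster width also differed, with a median of 55 nt in heart, 54 nt in muscle and 38 nt in C2C12. The source labels were checked on marker genes. Heart muscle markers had 307 clusters in heart and 4 in muscle, led by the cardiac ryanodine receptor gene Ryr2 with 252 and 0, although Myl7 and Nppa had no cluster in any library. Skeletal muscle markers had 13 clusters in heart and 113 in muscle, with all 9 genes bound in muscle. Neither list had a cluster in C2C12. The list of 6 myoblast markers took 8 heart, 6 muscle and 13 C2C12 clusters. Most were on the cyclin gene Ccnd1, with 5, 3 and 11, while Des had 3, 2 and 0, Myod1 had 0, 1 and 2, and Myf5, Myog and Pax7 had none. Markers of other cells that tissue contains were also present: endothelial markers had 75 clusters in heart and 23 in muscle, and macrophage markers had 7 and 3. Adipocyte markers had 1 cluster in each tissue. In bulk samples such as these, fewer cells of a type and less RNA per cell cannot be told apart.

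The 10 genes took 282 heart clusters, 167 muscle clusters and 7 C2C12 clusters. These were 0.667% of heart clusters (95% exact interval 0.592 to 0.749), 0.672% of muscle clusters (0.574 to 0.782) and 0.137% of C2C12 clusters (0.0550 to 0.282). At least 1 cluster was present on 9 of the 10 genes in heart, 8 in muscle and 3 in C2C12, where the same was true of 31.3%, 24.3% and 12.5% of RefSeq protein-coding genes. In any library 9 of 10 were bound, against 36.6% of those genes. The 10 genes were chosen with earlier results of these data known, so the comparison is a description and not a test. Heart and muscle thus gave these genes nearly equal shares of their clusters, and C2C12 gave them a smaller one, with intervals that did not meet. Without Rora the shares were 0.421% in heart (0.362 to 0.488) and 0.366% in muscle (0.295 to 0.450), still above the C2C12 interval. Read by gene part, 82.3% of the heart clusters (77.3 to 86.5) and 71.9% of the muscle clusters (64.4 to 78.5) were intronic, against 58.5% and 43.2% of all clusters in those libraries. The 3' UTR share was 14.9% in heart (11.0 to 19.6) and 26.4% in muscle (19.8 to 33.7), below the 33.0% and 50.1% of all clusters. These values lean on Rora, whose clusters were all intronic. Over the other 9 genes the intronic share was 71.9% of 178 clusters in heart (64.7 to 78.4) and 48.4% of 91 in muscle (37.7 to 59.1), and the 3' UTR share was 23.6% (17.6 to 30.5) and 48.4% (37.7 to 59.1). Without Rora, therefore, the heart shares still stood apart from those of all heart clusters, and the intervals of both muscle shares took in the values of all muscle clusters. Coding exons held 3 clusters in heart and none in muscle, and no cluster lay in a 5' UTR.

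**Figure D1:**
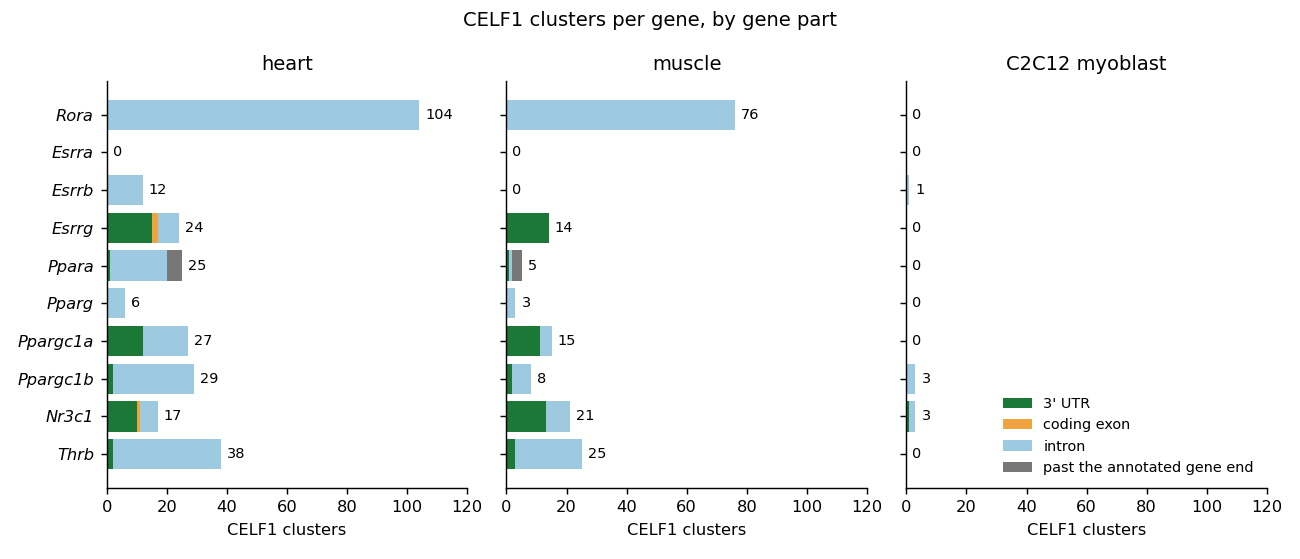
CELF1 clusters on each of the 10 genes (horizontal bars, number of clusters, 1 library per panel), colored by the gene part that holds the cluster midpoint. Rora is the longest bar in heart (104) and muscle (76) and is intronic throughout, Esrrg, Ppargc1a and Nr3c1 carry most of the 3' UTR clusters, and C2C12 has 7 clusters in all.

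Rora encodes RORα, a receptor that activates clock genes such as Arntl and competes with the REV-ERB repressors for the same DNA element. Its gene spans 734.5 kb on chromosome 9 (68501593 to 69236053). Rora had 104 clusters in the heart library, 76 in muscle and 0 in C2C12, and it ranked 11th in heart and 6th in muscle among all genes with a cluster. Per length, this was 14.2 clusters per 100 kb in heart and 10.4 in muscle. The median of bound genes longer than 100 kb was 4.47 in heart and 2.59 in muscle. Every cluster was intronic: 98 of 104 in heart and 72 of 76 in muscle fell in the 542.1-kb intron 1, and the other 6 and 4 fell in the 152.0-kb intron 2. The 8 introns downstream had none, and neither did the annotated 3' UTR of 9285 nt. Absence from so long a 3' UTR was uncommon, since of 299 genes with at least 20 heart clusters and a 3' UTR of at least 1000 nt, 40 (13.4%) had no 3' UTR cluster.

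Within Rora the clusters were denser toward the start of the gene. Counted in bins of 100 kb from the first annotated start, heart had 31, 19, 25, 17, 6, 2 and 4 clusters, and muscle had 17, 15, 19, 15, 6, 2 and 2, with none in the last 34.5 kb in either library. The first 400 kb held 92 of 104 heart clusters (88.5%) and 66 of 76 muscle clusters (86.8%). UGU and UG runs in the sequence were counted in the same bins. UGU stood at 24.4 to 27.4 per kb in every bin on the sense strand, and alternating UG runs of at least 12 nt numbered 72 in the first 4 bins and 82 in the remaining 4. GENCODE lists 3 coding transcripts of Rora, of which the most downstream begins 693.5 kb after the first. Every cluster in both tissues lay before that start, in RNA that the transcript beginning there lacks. What places the clusters toward the start of the gene was not tested.

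**Figure D2:**
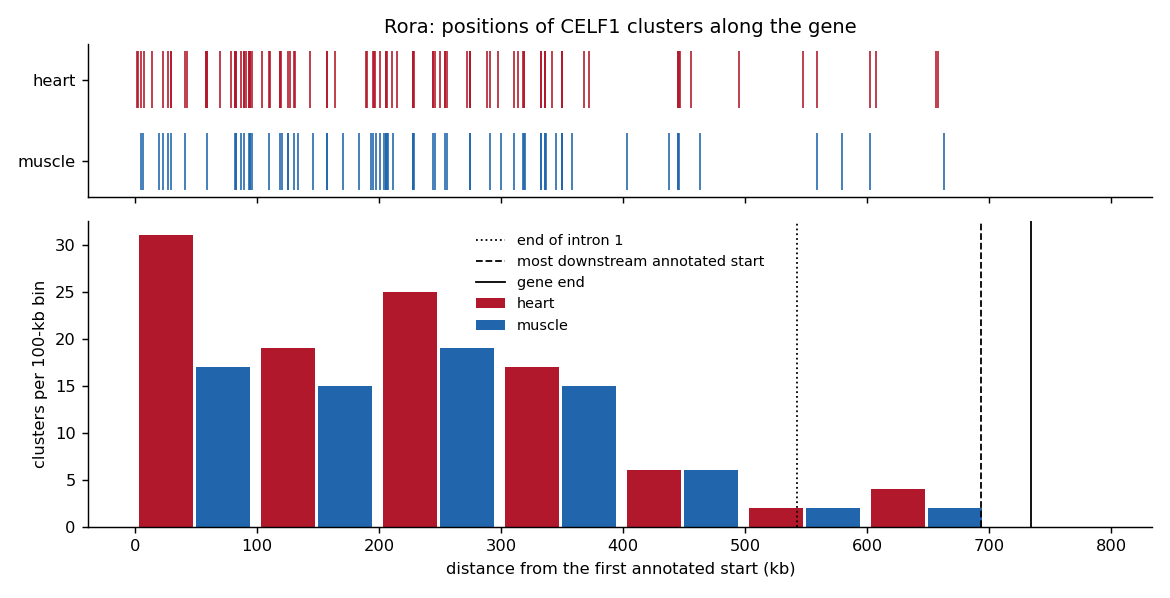
Positions of Rora clusters along the gene (top, 1 tick per cluster midpoint) and their number per 100-kb bin (bottom, bars for heart and muscle, the last bin ends with the gene after 34.5 kb), with distance from the first annotated start in kb. Both tissues have most clusters in the first 400 kb, few between there and the most downstream annotated start, and none after it.

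The estrogen-related receptors are orphan receptors that switch on mitochondrial and oxidative genes together with PGC-1. Esrra, the member best known from oxidative tissue, had 0 clusters in all 3 libraries over its 10.8-kb gene. Set at a limit of 3 clusters per library, in place of the interval used for the other shares, a count of 0 allows a share of up to 0.00710% of heart clusters, 0.0121% of muscle clusters and 0.0587% of C2C12 clusters. Esrrb, best known from pluripotent cells and the inner ear, had 12 clusters in the heart library, 0 in muscle and 1 in C2C12. Each of these lay in the 108.6-kb intron 1 and before the most downstream annotated start, which begins 109.0 kb after the first. The C2C12 cluster (chr12:87722656-87722691) overlapped a heart cluster and held a UG run of 23 nt.

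Esrrg encodes ERRγ, which is high in heart and oxidative muscle. It had 24 clusters in the heart library, 14 in muscle and 0 in C2C12, at chromosome 1, 189432670 to 190038764. Unlike its relatives it was bound mainly in the 3' UTR, which held 15 heart clusters and all 14 muscle clusters over 3746 nt. That was 4.0 clusters per kb of 3' UTR in heart and 3.74 in muscle, where genes with any 3' UTR cluster had a median of 1.48 and 1.5. Clusters covered 34.9% of the bases of this 3' UTR in heart and 22.3% in muscle. Their midpoints ran from 222 nt to 3587 nt past the stop codon, and 12 of the 15 heart clusters met a muscle cluster. Heart alone had 7 intronic clusters, 4 of them before the start codon, and 2 coding clusters, in coding exons of 416 and 162 nt (chr1:189867519-189867571 and chr1:189974065-189974104).

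Ppara encodes PPARα, the receptor that senses fatty acids and turns on their oxidation. It had 25 clusters in the heart library, 5 in muscle and 0 in C2C12 (chromosome 15, 85565413 to 85633249). With 36.9 clusters per 100 kb in heart and 7.37 in muscle, it was the most densely bound of the 10 genes in heart, where all bound genes had a median of 10.2. Ppargc1b came next in heart at 28.4. The values of Ppara are raised by clusters past the annotated end, given below, which were counted over the annotated length. Of the heart clusters 19 were intronic, in 4 of 7 introns, with 12 in the 40.6-kb intron 2, before the start codon. Muscle had 1 intronic cluster, in the same intron, and it met a heart cluster. The annotated 3' UTR of 1561 nt held 1 cluster in each tissue, about the UGU repeat shown above. A further 5 heart clusters and 3 muscle clusters lay on the same strand past the GENCODE end of the gene, at 176 to 3016 nt and 192 to 3922 nt beyond it. The deposited files assign these to Ppara, and whether they belong to a longer 3' UTR was not tested. Counted with them, Ppara had 6 heart clusters and 4 muscle clusters in or after its 3' UTR.

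Pparg encodes PPARγ, the master regulator of fat cells. It had 6 clusters in the heart library, 3 in muscle and 0 in C2C12, all intronic and before the start codon (chromosome 6, 115311239 to 115440419). The 6 heart clusters fell in the 56.1-kb intron 2, which also held 2 of the muscle clusters, and 2 heart clusters met a muscle cluster. Each of them lay before the start of the more downstream of 2 annotated coding transcripts, which begin 60.8 kb apart. Adipocyte markers had 1 cluster in heart (Cfd) and 1 in muscle (Lep), with Adipoq, Plin1 and Cidec at 0. The part of fat cells in the Pparg values was not tested.

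**Figure D3:**
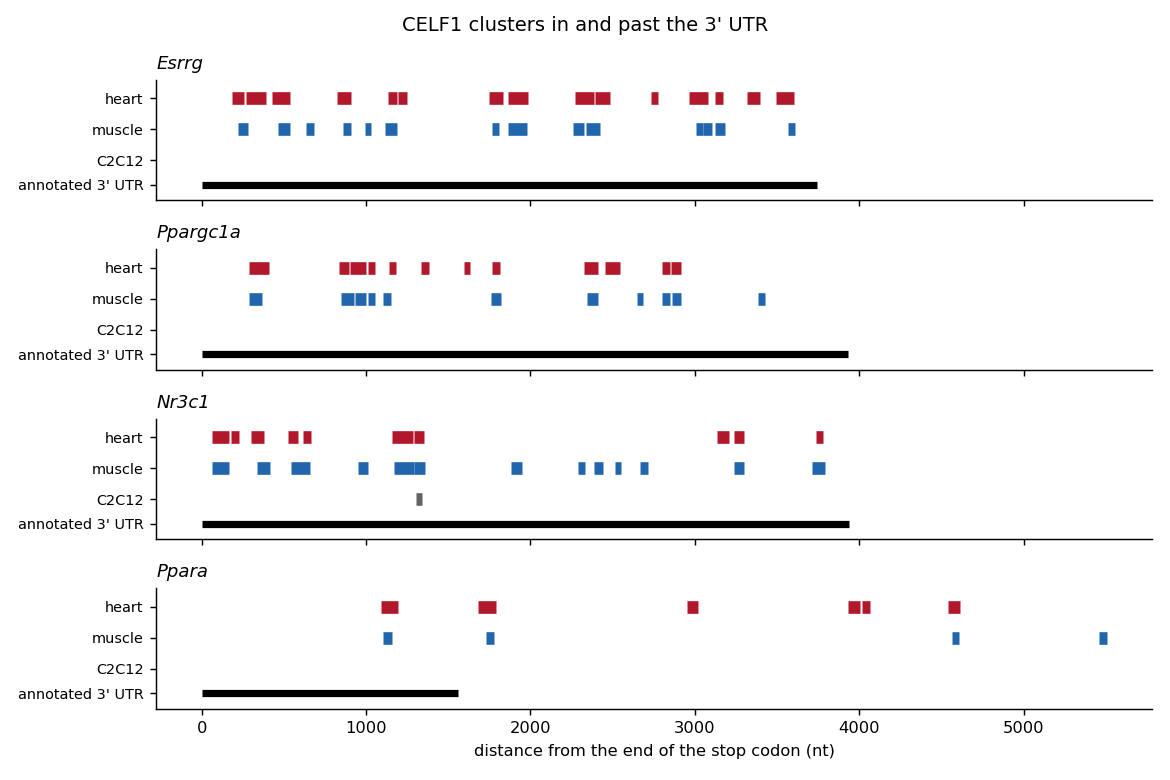
Clusters (colored bars, drawn to scale) of each library in and past the 3' UTR of Esrrg, Ppargc1a, Nr3c1 and Ppara, with distance from the end of the stop codon in nt and the annotated 3' UTR as a black bar. Heart and muscle clusters stand at largely the same places in Esrrg and Ppargc1a, muscle has clusters in the middle of the Nr3c1 3' UTR where heart has none, and Ppara clusters go on past the annotated end.

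The PGC-1 coactivator genes had similar numbers of clusters in heart, and they differed in number in muscle and in place. Ppargc1a, the inducible regulator of mitochondrial biogenesis, had 27 clusters in the heart library, 15 in muscle and 0 in C2C12 (chromosome 5, 51845488 to 51958964). Its 3931-nt 3' UTR held 12 heart clusters and 11 muscle clusters, or 3.05 and 2.80 per kb. Their midpoints lay from 330 nt to 3407 nt past the stop codon. The cluster nearest the stop codon held the UG repeat printed above and carried 21 UGU in heart and 19 in muscle, more than any other cluster of this 3' UTR. The remaining 15 heart clusters were spread over 6 of 12 introns, and all 4 remaining muscle clusters lay in the 50.3-kb intron 2. Ppargc1b, its constitutive relative, had 29 clusters in the heart library, 8 in muscle and 3 in C2C12 (chromosome 18). It was mostly intronic, with 27 of the heart clusters, 6 of the muscle clusters and all 3 C2C12 clusters in introns, and the 77.0-kb intron 1 alone held 22, 5 and 2. The 547-nt 3' UTR held the same pair of places in heart and muscle. All 8 muscle clusters of Ppargc1b met a heart cluster, while 8 of 29 heart clusters met a muscle cluster.

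Nr3c1 encodes the glucocorticoid receptor, which acts on stress hormone and drives muscle protein breakdown. It was the only gene of the 10 with more clusters in muscle than in heart, with 17 in heart, 21 in muscle and 3 in C2C12 (chromosome 18). Its 3937-nt 3' UTR held 10, 13 and 1 of these, and the 57.2-kb intron 2 held 6, 8 and 2. A single heart cluster lay in a coding exon of 158 nt. In the 3' UTR, 8 of 10 heart clusters met a muscle cluster, and 7 of 13 muscle clusters met a heart cluster. The C2C12 cluster, 1325 nt past the stop codon, overlapped clusters of both tissues. The place of Nr3c1 in the 3' UTR depends on the annotation, because its longest coding transcript ends elsewhere and none of these 10, 13 and 1 clusters counts as 3' UTR on that transcript.

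Thrb encodes the thyroid hormone receptor β, which represses its targets until hormone binds. It had 38 clusters in the heart library, 25 in muscle and 0 in C2C12 over 377.1 kb (chromosome 14, 18493474 to 18870602). Introns held 36 and 22 of these, and 33 and 20 lay before the start codon in the 165.9-kb intron 1 and the 98.6-kb intron 2. Intron 1 had 20 heart clusters and 10 muscle clusters, and intron 2 had 13 and 10. The 4422-nt 3' UTR held 2 and 3 clusters. Both heart clusters there, 84 and 203 nt past the stop codon, met a muscle cluster. Of the 4 coding transcripts in GENCODE the most downstream begins 340.3 kb after the first, with 36 of 38 heart clusters and 21 of 25 muscle clusters before it.

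To ask which genes took a different share of clusters in the 2 tissues, the heart share of each gene was divided by its muscle share. A gene was called different at a ratio of at least 2 in either direction with at least 5 clusters over both libraries, a rule of size with no test behind it. Of the 9 genes with enough clusters, 3 were higher in heart (Esrrb, Ppara and Ppargc1b) and 1 was higher in muscle (Nr3c1). Over all 3771 genes compared, 18% were higher in heart and 19.3% in muscle, or 37.3% in either direction, so 4 of 9 is near the rate of genes at large. The median ratio was 1.03 over the 8 genes bound in both tissues and 0.882 over 3451 such genes in all.

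Ppara had the largest measured ratio, 2.94 (95% exact interval 1.10 to 9.83), and in intronic clusters alone, scaled to the intronic clusters of each library, it was 8.25 (1.31 to 342.7). Esrrb, with 12 clusters against 0, had a bound of 2.35 when muscle was set at 3 clusters. This bound gives the heart count no counting error. The exact intervals of its shares met, at 0.0147% to 0.0496% in heart and up to 0.0149% in muscle. Ppargc1b had a ratio of 2.13 (0.951 to 5.39), and its interval took in 1. Nr3c1 stood at 0.476 (0.236 to 0.947), which is 2.10-fold higher in muscle. Of these 4 calls, that of Ppara stayed past the fold in each alternative that left it at least 5 clusters. With close clusters merged, the ratio of Ppara was 2.54 (0.938 to 8.58), an interval that took in 1. On 3' UTR clusters alone it had 1 against 1, a ratio of 0.893 (0.0114 to 70.1) that could not be called. The other calls each ended under some alternative. Esrrb fell to a bound of 1.91 with clusters of at least 40 nt, 1.73 with close clusters merged and 1.74 on intronic clusters. Nr3c1 moved to 0.512 with clusters of at least 40 nt, 0.687 on 3' UTR clusters and 0.810 on raw counts, and Ppargc1b fell to 1.95 on intronic clusters.

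The other genes were close to even. Esrrg had a ratio of 1.01 (0.501 to 2.11), and its 3' UTR clusters alone gave 0.956 (0.430 to 2.14). Ppargc1a gave 1.06 (0.543 to 2.14), or 0.974 (0.393 to 2.44) in the 3' UTR. Thrb gave 0.894 (0.526 to 1.54) and Pparg 1.18 (0.251 to 7.26). Rora gave 0.804 (0.593 to 1.10) on all clusters. On intronic clusters, scaled to the intronic clusters of each library, Rora gave 0.594 (0.438 to 0.809), an interval that lies below 1. These intervals are wide, and ratios near 1 do not show that binding was equal.

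**Figure D4:**
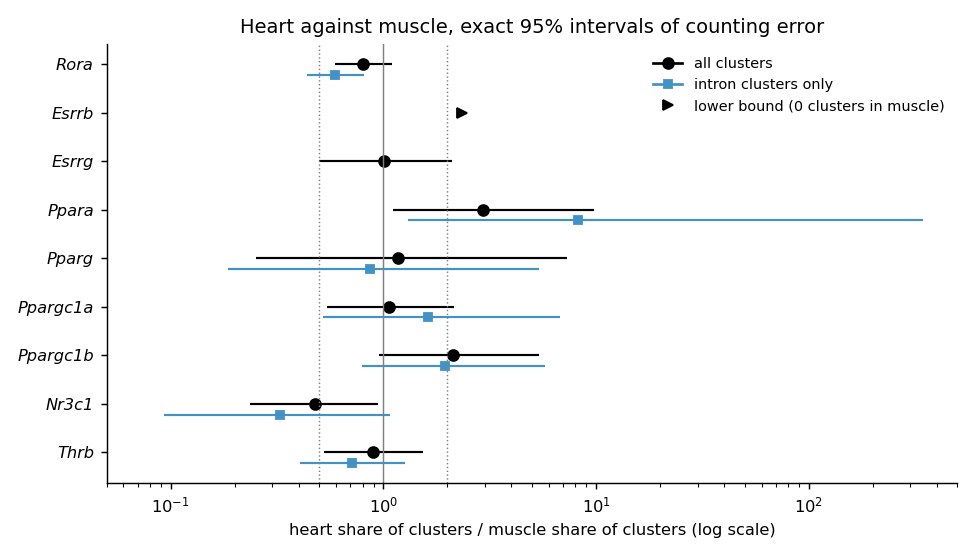
Heart share of clusters divided by muscle share for each gene (log scale), with exact 95% intervals of counting error for all clusters (circles) and intronic clusters only (squares), dotted lines at 0.5 and 2. Ppara lies to the right of 1 on both measures, Nr3c1 lies to the left on all clusters, Esrrb is a lower bound of 2.35, and the remaining intervals of all clusters take in 1.

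**Figure D5:**
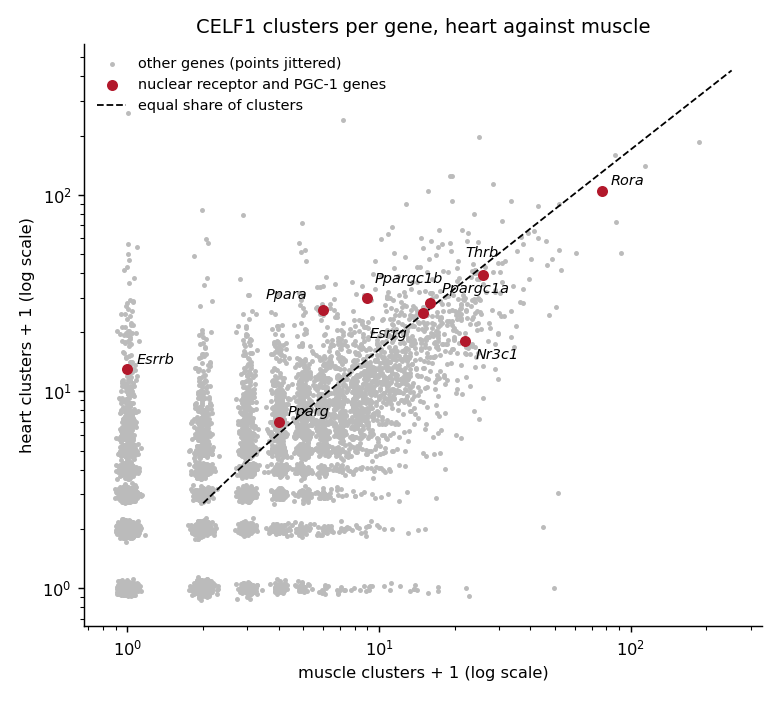
Clusters per gene in heart against muscle for all genes (gray, jittered) and for the 9 bound genes of this group (red), both axes as number plus 1 on a log scale, with a dashed line of equal library share. Rora and Thrb lie along the line among the most heavily bound genes, Ppara, Ppargc1b and Esrrb lie above it, and Nr3c1 lies below it.

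C2C12 myoblasts had clusters on Ppargc1b (3), Nr3c1 (3) and Esrrb (1), and on none of the other 7 genes. Against heart, Rora was called as higher in heart, with a bound of 4.2 when C2C12 was set at 3 clusters. It was alone past the fold among the 9 genes compared, where 5.05% of 3009 genes were higher in heart, 22.7% were higher in C2C12 and 27.7% were past the fold in either direction. Against muscle, Rora was called as higher in muscle, with a bound of 5.22. It was alone past the fold among the 7 compared, with 8.11% of 2072 genes higher in muscle, 19% higher in C2C12 and 27.1% in either direction. Both bounds fell under the fold, to 1.67 and 1.98, when only clusters of at least 40 nt were counted, since 38.9% of C2C12 clusters are that wide, against 87.2% in heart and 84.8% in muscle. Nr3c1 gave 0.686 (0.198 to 3.65) for heart over C2C12 and 1.44 (0.430 to 7.55) for muscle over C2C12. Ppargc1b gave 1.17 (0.363 to 6.0) and 0.549 (0.132 to 3.21). For Thrb the bound was 1.53 against heart and 1.72 against muscle, and for Ppargc1a it was 1.09 and 1.03. These bounds give the tissue count no counting error. For both genes the exact intervals of the share in heart and in muscle took in 0.0721%. That is the upper limit for a count of 0 in C2C12, so these bounds do not show a difference. For Esrrg against both tissues, Pparg against heart and Ppara against muscle, the number of clusters in the C2C12 library allowed no bound above 1, so a difference was not detectable.

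To see whether the tissues shared binding places as well as bound genes, clusters were matched by at least 1 shared base on the same strand. Of the 282 heart clusters on these genes, 112 (39.7%, 34.0 to 45.7) met a muscle cluster, against 30.9% of all heart clusters. Of the 167 muscle clusters, 111 (66.5%, 58.8 to 73.6) met a heart cluster, against 52.8% of all muscle clusters. In the 3' UTR, 34 of 42 heart clusters (81.0%, 65.9 to 91.4) were shared with muscle, against 53.9% in the library, and in introns 76 of 232 (32.8%, 26.8 to 39.2) were shared, against 19.0%. Rora gave 50 of those 76, and over the other genes 26 of 128 intronic heart clusters were shared (20.3%, 13.7 to 28.3), close to the library's value. Leaving out Rora, 34.8% of the heart clusters (27.9 to 42.3) and 68.1% of the muscle clusters (57.5 to 77.5) of any part were shared. By gene, 50 of 104 heart clusters of Rora met a muscle cluster, as did 12 of 24 of Esrrg, 12 of 27 of Ppargc1a, 10 of 17 of Nr3c1, 14 of 38 of Thrb, 2 of 6 of Pparg and 4 of 25 of Ppara. In reverse, 49 of 76 muscle clusters of Rora, 12 of 14 of Esrrg, 12 of 15 of Ppargc1a and 9 of 21 of Nr3c1 met a heart cluster. The same held for 15 of 25 of Thrb, 4 of 5 of Ppara, 2 of 3 of Pparg and 8 of 8 of Ppargc1b. For each gene bound in both tissues except Nr3c1, most muscle clusters thus lay at heart places. Of the 7 C2C12 clusters, 3 met a heart cluster and 2 met a muscle cluster.

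UGU was present in nearly every cluster. It was found in 278 of 282 heart clusters (98.6%, 96.4 to 99.6), 165 of 167 muscle clusters (98.8%, 95.7 to 99.9) and all 7 C2C12 clusters, against 98.3%, 98.4% and 86.4% of all clusters in these libraries. The clusters without UGU were 3 of Rora and 1 of Ppargc1b in heart and 2 of Rora in muscle. Alternating UG runs of at least 12 nt were in 43 heart clusters (15.2%) and 15 muscle clusters (8.98%) of these genes, against 9.31% and 5.60% of all clusters. Most were intronic, with 41 and 14 in introns against 2 and 1 in 3' UTRs. These genes have more of their clusters in introns than the libraries do. Among intronic clusters alone the difference was smaller, at 17.7% against 14.1% in heart and 11.7% against 10.3% in muscle. Rora had 20 of the clusters with such a run in heart and 10 in muscle, and its longest run was 35 nt. Without Rora the share of clusters with such a run was 12.9% in heart (8.37 to 18.8) and 5.50% in muscle (1.81 to 12.4), intervals that took in the values of all clusters. Introns carried 12.4 UGU per 100 nt of cluster in heart and 12.3 in muscle, and 3' UTRs carried 6.14 and 6.47, close to the 11.5 and 5.59 of all heart clusters in those parts.

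Intronic clusters of these genes lay far from exons. The median distance from a cluster to the nearest exon was 24446.5 nt in heart and 84592.5 nt in muscle, against 3649 and 2728.5 nt for all intronic clusters. More than 10 kb from any exon were 72.4% of the heart clusters and 85.8% of the muscle clusters, against 31.2% and 26.6%. Rora, with medians of 130395.5 and 176713 nt, made up 104 of the 232 heart clusters and 76 of the 120 muscle clusters behind these values. Over the other genes the medians were 11410.5 nt in heart and 14492.5 nt in muscle, and 53.9% (44.9 to 62.8) and 65.9% (50.1 to 79.5) lay more than 10 kb away, still above all intronic clusters. Within 300 nt of an exon, where splicing is often regulated, there were 3 clusters in all: Thrb in heart at 44 nt (chr14:18758199-18758234), Ppargc1a in heart at 250 nt (chr5:51889000-51889046) and Ppargc1b in C2C12 at 145 nt. That was 0.862% of the heart clusters in introns of these genes, against 12.5% of all intronic heart clusters, or 1.56% without Rora (0.190 to 5.53). None of these comparisons was matched for intron length. Besides those of Rora, many of the clusters lay in long introns, such as the 165.9-kb intron 1 of Thrb. A long intron leaves more room far from exons, so the values do not show that exon-near places were avoided.

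Clusters in 3' UTRs lay a median of 1705 nt before the transcript end in heart and 1294.5 nt in muscle, against 878 and 836 nt for all 3' UTR clusters. Within 500 nt of the end lay 9 of 42 heart clusters (21.4%) and 10 of 44 muscle clusters (22.7%), against 32.7% and 35.1%. The comparison was not matched for 3' UTR length. Most of these clusters lay in the 3' UTRs of Esrrg (3746 nt), Ppargc1a (3931 nt) and Nr3c1 (3937 nt), where greater distances are possible. Ppargc1a stood farthest from the end among the genes with at least 10 such clusters, with a median of 2442 nt in heart and 2139 nt in muscle. Nr3c1 stood at 1561 and 1244 nt, and Esrrg at 1320 and 1392 nt. Ppargc1b, with its short 3' UTR, had every such cluster within 284 nt of the end.

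Genes that work with these receptors were read from 7 lists, among them 34 other nuclear receptors, 20 coactivators and corepressors, and targets in fuel use, mitochondria, glucocorticoid response, clock and thyroid hormone handling. Of the other nuclear receptors, 20 of 34 had a cluster in some library, and of 10 compared between tissues 1 was higher in heart and 4 were higher in muscle. The most bound was Nr3c2, the mineralocorticoid receptor gene, with 40 clusters in heart, 10 in muscle and 0 in C2C12, a ratio of 2.35 (1.16 to 5.27) that stands opposite in direction to the 0.476 of Nr3c1. Ppard, which encodes PPARδ, had 16, 7 and 1, a ratio of 1.34 (0.523 to 3.86). The closest relative of Thrb, Thra, had no cluster. All 20 coactivators and corepressors were bound in heart, 1 of 14 was higher in heart and none was higher in muscle, with Tbl1xr1, a corepressor subunit, at 32, 27 and 2 clusters and Ncoa3, a coactivator of the p160 family, at 21, 17 and 0.

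Of 29 genes of fatty acid oxidation and fuel use, 24 were bound in heart, 14 in muscle and 3 in C2C12, and 3 of 15 compared were higher in heart and none was higher in muscle. Their median ratio was 1.32 over 13 genes, with the fatty acid transporter gene Cd36 at 28, 13 and 0 clusters and Acacb, an enzyme that makes the brake on mitochondrial fat import, at 21, 9 and 0. Of 15 mitochondrial genes, 1 of 10 was higher in each tissue, with a median of 0.747. Mfn2, a mitochondrial fusion gene, had 14, 10 and 1 clusters, and Ckmt2, the mitochondrial creatine kinase gene, had 14, 3 and 0. Of 16 glucocorticoid targets, 1 of 13 was higher in heart and 4 were higher in muscle, with a median of 0.588. Zbtb16, a glucocorticoid-induced transcription factor gene, had 92, 50 and 0 clusters, and Pik3r1, a subunit of PI3 kinase, had 33, 20 and 5. Of 15 clock genes none of 7 was past the fold, and Hlf (14, 10 and 0) and Clock (13, 9 and 0) had the most clusters. Of 8 genes of thyroid hormone handling, the transporter gene Slc16a10 (24, 17 and 0) had the most clusters, and the deiodinase genes Dio1, Dio2 and Dio3 had none. The medians stand beside 0.882 for all genes, and the calls beside 18% higher in heart and 19.3% higher in muscle. For every list, the numbers of bound genes stand beside the share of RefSeq protein-coding genes with a cluster. That share was 31.3% in heart, 24.3% in muscle, 12.5% in C2C12 and 36.6% in any library.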

How the data were processed

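CELF1 CLIP-seq was done on heart (ventricle), muscle and C2C12 myoblasts, 1 library each. As the labels and methods describe, the authors removed duplicate reads, trimmed adapters, mapped uniquely to mm9 and splice junctions with Bowtie and TopHat (the sources used here give no versions) and clusters were called in each library by a Poisson test of 30-nt windows that took gene expression and pre-mRNA length into account, within gene bounds from RefSeq, Ensembl and UCSC. The deposited files give cluster positions with an Entrez identifier, and the score column holds 1e-06 throughout and was not used. The files hold no read numbers, so that the depth behind a cluster is not known, and sites in repeated sequence are lost to unique mapping.

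Clusters were placed by midpoint on GENCODE vM1 coding transcripts of NCBIM37 (mm9), positions counted from 1, in the order 3' UTR, coding exon, 5' UTR, intron. Of 8037 identifiers, 7980 (99.3%) matched, with symbols from a RefSeq table of assembly GRCm38.p6 used for names only. Introns were numbered on the coding transcript of longest span. Shares have exact (Clopper-Pearson) and ratios exact conditional 95% intervals, and a count of 0 was set to 3 per library for bounds. Such a bound gives the count in the other library no counting error. With 1 library per group no p-value was computed. Named genes are all 10 of the group, the 2 genes of each list with the most clusters, and, chosen after their values were seen, the markers, Thra and the deiodinase genes. Some items that this rule names are not reported here. The 10 genes and the lists were chosen with earlier results of these data known. The procedures were tested on simulated data. Python 3.11.15, pandas 2.3.3, scipy 1.17.1, pysam 0.24.0 and samtools 1.23.1 were used.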

Additional observations from a re-analysis of the deposited data

How the results depend on the processing

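Shares of clusters, folds, sharing of places, UGU and UG runs, distances and list calls were recomputed with other settings, 211 values in all. Of these, 155 were counted as unchanged and 56 moved, and no called gene with at least 5 clusters turned its direction. Unchanged meant within the interval or the call of the value in the report, or, for a number of called genes, a small change at most. The 3 genes higher in heart than muscle thus counted as unchanged at 2 with clusters of at least 40 nt, at 2 with close clusters merged and at 4 on raw counts. Densities per kb, the Rora bins and list medians were not recomputed. For heart over muscle, the 3 genes higher in heart became 0 on 3' UTR clusters only (4 genes left) and 1 on intron clusters only, a setting chosen after seeing the data, and the 1 higher in muscle became 0 with clusters of at least 40 nt, on 3' UTR clusters only and on raw counts. For heart over C2C12, the 1 gene higher in heart became 0 with clusters of at least 40 nt, 0 on 3' UTR clusters and 9 on raw counts, which ignore that the libraries differ in their number of clusters, and the 0 higher in C2C12 became 1 on intron clusters (Nr3c1, at 0.375). For muscle over C2C12, the 1 higher in muscle became 0 with clusters of at least 40 nt, 0 on 3' UTR clusters, 2 on intron clusters (Rora and Thrb) and 6 on raw counts, and the 0 higher in C2C12 became 1 with clusters of at least 40 nt. The 3' UTR share on the longest coding transcript fell from 14.9% to 10.6% in heart, from 26.4% to 17.4% in muscle and from 14.3% to 0% in C2C12, through Nr3c1 and Ppargc1b, and with clusters of at least 40 nt the C2C12 share was also 0%. Leaving out Rora, chosen after seeing the data, moved the share of the library to 0.421% in heart and 0.366% in muscle, the 3' UTR share to 23.6% and 48.4%, the intronic share to 71.9% and 48.4%, the intronic clusters over 10 kb from an exon to 53.9% and 65.9%, the intronic heart clusters shared with muscle to 20.3% and the muscle clusters with UGU to 100%. Other settings added for intronic clusters gave an intronic share of 63.1% in heart and 57.5% in muscle on the longest coding transcript, 41.0% of intronic heart clusters shared with gaps of up to 50 nt, and 52.5% of intronic muscle clusters shared with 50% overlap. Requiring that 50% of both clusters be shared gave 31.6% for heart with muscle and 53.3% for muscle with heart, and allowing gaps of up to 50 nt gave 47.9% for heart with muscle. Measured to the most distal annotated end, the median distance of 3' UTR clusters was 2418 nt in heart and 2611 nt in C2C12. Over the gene lists, 7 genes higher in heart became 3 at a fold of at least 3 and 5 with at least 10 clusters. The 9 higher in muscle became 6 under each of these settings. No paired analysis was possible because each group had 1 library, and for the same reason no replicate could be left out. The number of reads per cluster is unknown, which limits every count.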
